A study of Mus musculus with 24 samples.

Results

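In kidneys of sham-operated mice, RNA bound to tagged ribosomes was compared with the unbound RNA of the same homogenate across all genes. The comparison rests on 6 of the 24 libraries of the series, 3 bound and 3 unbound, picked by the column names of the deposited table and paired by mouse number. Of the 40750 genes in that table, 13721 reached at least 1 RPKM (reads per kilobase of exon and 1e+06 reads) in at least 3 of the 24 libraries, and these were tested. The groups used were bound and unbound RNA of sham kidneys and, for comparison, the same fractions 2, 7 and 14 days after ischemia, with 3 mice at each time. Every mouse, sham mice included, was a male of 8 to 10 weeks on a mixed background with the genotype Kim1-GCE+/-; EGFPL10a+/-, and had tamoxifen 6 h before and 24 h after surgery. Ischemia was 20 min of clamping of the renal pedicles on both sides, and sham surgery left the clamp out. The labels call the bound fraction cell-type specific and the unbound fraction total kidney. They do not say which cells or how many carried the tag in sham kidneys, and no library from mice without the tag or without tamoxifen was used here.

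In translating ribosome affinity purification, a ribosomal protein fused to a green fluorescent protein is made in chosen cells, and an antibody against the fluorescent protein pulls down those ribosomes with the mRNAs they are translating. Here L10a, a protein of the large ribosomal subunit, carries the tag, and Kim1 (the gene Havcr1, for kidney injury molecule 1) directs the Cre that switches it on. Havcr1 is known as a gene that is nearly silent in healthy kidney and induced in the injured proximal tubule, the segment that recovers most of the filtered solutes. In such a design, mRNAs of the tagged cells are usually the ones looked for among those higher in the bound fraction.

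The libraries were of similar depth. Reads per library, inferred from the spacing of low RPKM values, came to 22.94, 23.21 and 24.65 in units of 1e+06 in bound RNA and 19.31, 21.03 and 18.77 in unbound RNA, so that 1 RPKM of a gene with 1 kb of exons stood for 18.8 to 24.7 reads. The 10 most abundant genes took 12.1% to 15.4% of the summed RPKM in bound libraries and 22.7% to 25.8% in unbound ones. Across genes, the log2 values of the bound libraries of mice 1 and 2 correlated at 0.972, while the bound library of mouse 3 reached 0.929 and 0.93 with them and so stood apart. The unbound libraries correlated at 0.972 to 0.977, and bound with unbound of the same mouse at 0.908 to 0.914. Where a count above 0 for a gene group moved by over 1.5 times when a mouse was left out, the count without it is given in the same paragraph.

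The fractions differed over a large share of the transcriptome. Of 13721 genes tested, 5391 (39.3%) passed an adjusted p of 0.05, 2880 higher in bound RNA (21.0%) and 2511 lower (18.3%), and 6603 had an unadjusted p under 0.05. Without mouse 2 the count was 3488, and with the sham libraries fitted alone it was 3261. Over all tested genes the log2 folds had a median of 0.01. Large differences ran mainly one way: 66 genes were called higher by at least 8-fold and 2 lower, and at 16-fold or more there were 28 higher and 0 lower. Bound and unbound libraries did not overlap in 41.1% of tested genes.

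**Figure D1:**
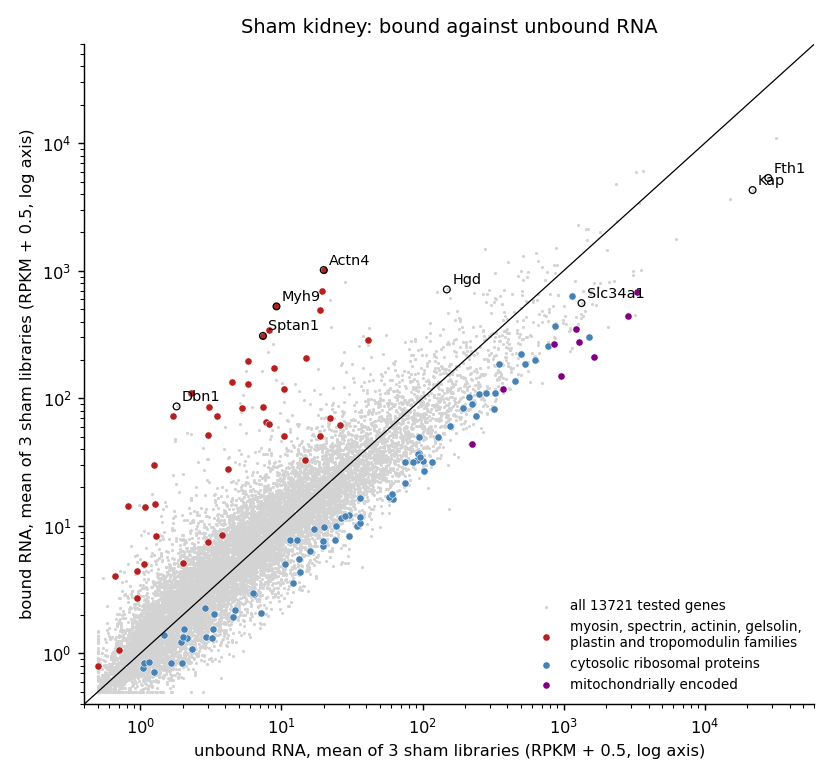
Mean RPKM plus 0.5 of the 3 bound libraries (vertical, log axis) against that of the 3 unbound libraries (horizontal, log axis) in sham kidneys; each grey dot is 1 of 13721 genes, the line marks equality, and coloured dots mark 6 families of actin-binding proteins, ribosomal proteins and mitochondrially encoded genes. The actin-binding families lie far above the line, and the ribosomal and mitochondrial genes lie below it.

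The mRNAs with the highest bound over unbound ratios encoded motors and crosslinkers of the actin cytoskeleton. Myh9, the heavy chain of nonmuscle myosin IIA (chromosome 15, 12928 bases of exon), had 508, 676 and 390.4 RPKM in bound RNA, against 8.80, 9.29 and 8.08 RPKM in unbound RNA. Every bound library lay far above every unbound one, for a log2 fold of 5.80 (SE 0.60, adjusted p = 3.6e-05). Actn4, the alpha-actinin that crosslinks actin filaments in podocytes and other epithelia (chromosome 7), had 1231, 1044 and 762 RPKM in bound RNA, against 17.8, 17.3 and 23.1 RPKM in unbound RNA (log2 fold 5.65, SE 0.51). The groups did not overlap here either. Dbn1, the side-binding protein drebrin, averaged 85.8 ± 20.4 RPKM in bound and 1.31 ± 0.495 RPKM in unbound RNA (SD, n = 3 each; log2 fold 5.59). They were followed by the other nonmuscle myosin heavy chains Myh10 (log2 fold 5.54) and Myh14 (5.33), the filament end cap Tmod3 (5.36), the spectrin Sptan1 (5.33) and Gsn, the severing protein gelsolin (5.19). Myo18a (5.04), the filopodial motor Myo10 (4.93), Fbxo46, an F-box protein of ubiquitin ligases (4.85), and the focal adhesion protein Tes (4.81) completed the 12 largest rises. For all 12 the lowest bound value lay above the highest unbound value.

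**Figure D2:**
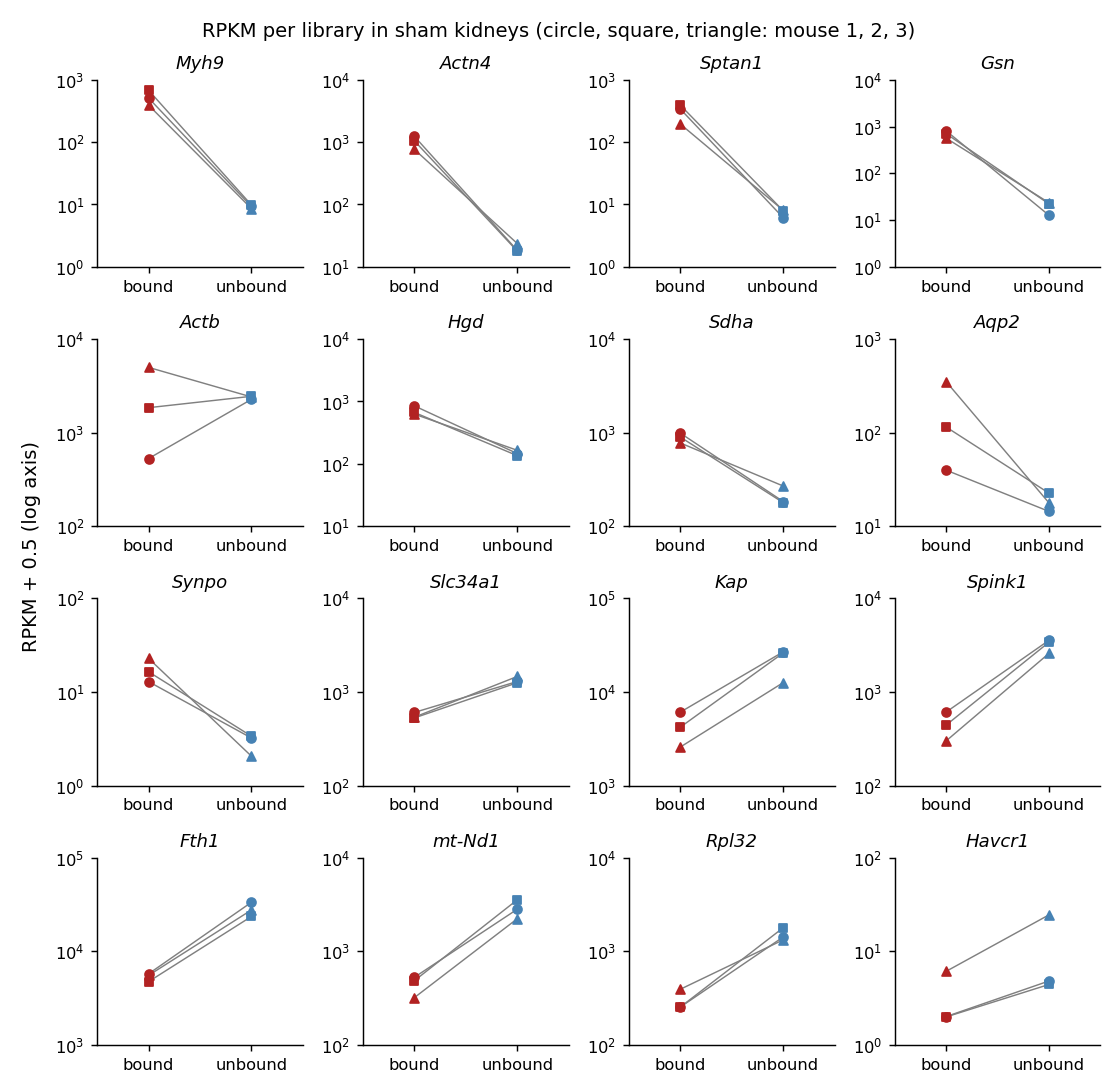
RPKM plus 0.5 (log axis, a separate range in each panel) of 16 genes in the 3 bound (left, red) and 3 unbound (right, blue) libraries of sham kidneys; symbols mark the mouse and lines join its fractions. Myh9, Actn4, Sptan1 and Gsn stand far higher in every bound library, Actb spreads over the bound libraries from 528 to 4981, and Kap, Spink1, Fth1 and mt-Nd1 are lower in every bound library.

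Nearly the whole myosin heavy chain family took part. Of 22 tested members 21 were higher in bound RNA and 0 lower, with a median log2 fold of 3.51, against 21.0% higher among all genes. They included the endocytic motor Myo6 (488 ± 146 RPKM bound and 18.2 ± 1.24 RPKM unbound), Myo5b of recycling vesicles (log2 fold 4.27), the brush border myosin Myo7b (3.53) and the smooth muscle chain Myh11 (4.56). At the low end were Myo1c (1.39), Myo9b (1.33), the mitochondrial motor Myo19 (1.17) and the leukocyte gene Myo1g, which did not pass (0.61, adjusted p = 0.065). Families such as this one were formed by gene symbol after values had been seen, so their counts describe the data and are no independent evidence.

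Crosslinking, capping and severing proteins were higher as well. All 4 tested spectrins, which form the lattice under the membrane, were higher (median log2 fold 3.55), led by Sptan1 with 339, 391 and 194 RPKM in bound RNA, against 5.65, 7.45 and 7.58 RPKM in unbound RNA. All 3 alpha-actinins (median 4.75), all 3 plastins that bundle filaments (3.95) and all 7 members of the gelsolin family (2.75) were higher. Among the last, Vil1, the villin of proximal tubule microvilli, averaged 288 ± 114 RPKM in bound and 40.3 ± 0.425 RPKM in unbound RNA (log2 fold 2.75), and Capg was the lowest with 0.998, which did not pass without mouse 3 (0.64, adjusted p = 0.057). Of 3 tropomodulins Tmod3 and Tmod1 were higher (median 4.16), while Tmod2 was at trace level. Together these 6 families held 42 tested genes, of which 40 were higher and 0 lower. Their share of the summed RPKM was 1.85%, 1.61% and 1.15% in bound libraries, against 0.0566%, 0.0616% and 0.0668% in unbound libraries. Of the 66 genes called higher by at least 8-fold, 24 belonged to these families.

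Scaffolds that tie actin to junctions and membranes were on the same side. All 5 tested genes of the tight junction plaque were higher. Paracingulin, Cgnl1, had 788, 579 and 392 RPKM in bound RNA, against 20.3, 25.5 and 18.8 RPKM in unbound RNA. Cingulin, Cgn, had a log2 fold of 4.50, and the zonula occludens genes Tjp1 and Tjp3 had 1.82 and 1.60. The membrane-spanning claudins of the same junctions did otherwise: of 15 tested 2 were higher (3 without mouse 1, 1 without mouse 3) and 4 lower, with a median of -0.18. Cldn2, the cation pore of the proximal tubule, had 54.8, 54.3 and 50.3 RPKM in bound RNA, against 140, 139 and 148 RPKM in unbound RNA (log2 fold -1.41). Iqgap1 (4.21) and Iqgap2 (3.86), scaffolds of the cell cortex, and the filamin Flna (2.09) were higher, and so were Lima1 (4.76), Lmo7 (4.62), Limch1 (4.30), the nuclear envelope anchor Syne2 (4.61), Amotl2 (3.35) and the plakins Plec (3.52) and Evpl (3.47). These last examples were picked from the genes at 8-fold or more after their values were seen.

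Actin itself and the small proteins that turn it over did not follow. Actb, cytoplasmic beta-actin, had 528, 1848 and 4981 RPKM in bound RNA, against 2270, 2446 and 2406 RPKM in unbound RNA. Its bound libraries lay below, near and above the unbound ones, and the log2 fold of -0.49 did not pass (95% interval -1.59 to 0.62, adjusted p = 0.49). It was positive without mouse 1 and after quantile normalization. Of the 3 tested actin genes 0 were called by limma, and 0 had an unadjusted p under 0.05. Of 9 subunits of the Arp2/3 complex, which branches filaments, 0 were higher and 2 lower (Arpc5 and Arpc5l, log2 folds -0.78 and -0.67; median of the 9 -0.11). Of 5 cofilin and profilin genes 1 was lower (Cfl2, -0.90) and 0 higher. Tropomyosins, which lie along the filament, gave 2 of 4 higher (Tpm1 with 1.12 and Tpm3 with 0.87). Of 6 myosin light chains, Myl7, known as the atrial chain, was higher with 25.2, 61.3 and 145 RPKM in bound RNA, against 2.02, 5.64 and 6.41 RPKM in unbound RNA (log2 fold 3.69), Myl12a was higher (0.84) and Myl6b lower (-1.16). The few calls in these small families were unsteady: the 2 lower Arp2/3 genes did not pass without mouse 1 or without mouse 2, Tpm1 (0.57) and Myl12a (0.48) did not pass without mouse 3, and without mouse 3 the lower cofilin and profilin genes were 3.

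Other filament systems differed less. Of 14 tubulins 6 were higher and 0 lower (median 0.56), with Tubb2b (1.59) and Tubb2a (1.20) in front. Of 23 kinesins, the motors of microtubules, 7 were higher (30.4%, against 21.0% over all genes) and 0 lower (median 0.34). Without mouse 2 the higher kinesins were 5. Of 12 keratins, the intermediate filaments of epithelia, 8 were higher and 1 lower, with a median of 1.46. Krt18 had 175, 137 and 232 RPKM in bound RNA, against 29.99, 19.9 and 28.4 RPKM in unbound RNA, a log2 fold of 2.76 with no overlap. Its partner Krt8 was higher by 2.16, Krt23 by 3.12, and Krt10 was lower (-0.82), a call lost without mouse 1 or mouse 2. Without mouse 3 the higher tubulins were 3.

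**Figure D3:**
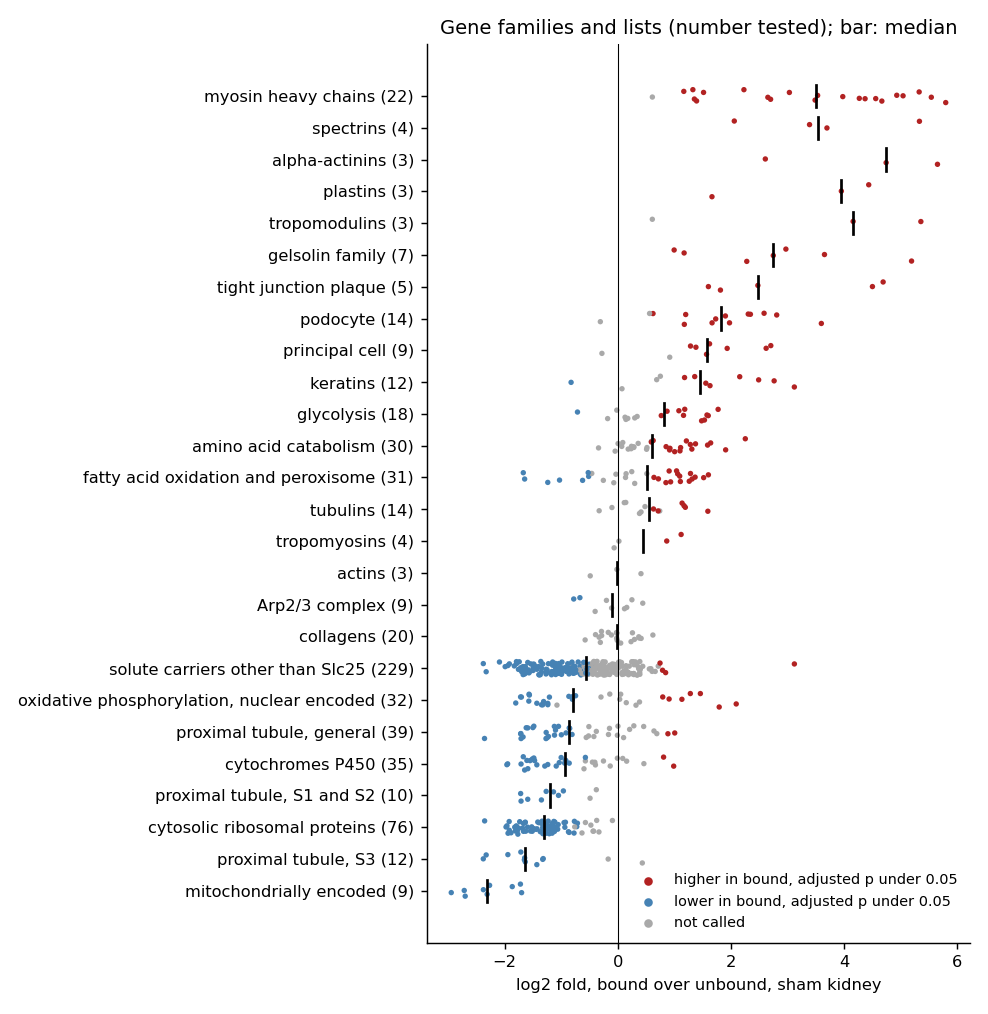
Log2 fold of bound over unbound RNA in sham kidneys for members of 26 gene families and marker lists (1 dot a gene, number tested in brackets); red dots are called higher in bound RNA, blue dots lower, grey dots not called, and the black bar is the median. Myosin heavy chains and other actin-binding families sit furthest to the right, actins and collagens lie around 0, and proximal tubule, ribosomal protein and mitochondrially encoded genes lie to the left.

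The gene that drives the Cre, and most markers of the proximal tubule, were lower in bound RNA. Havcr1 had 1.51, 1.49 and 5.61 RPKM in bound RNA, against 4.32, 3.93 and 24.1 RPKM in unbound RNA. Each mouse had less in its bound fraction, although the bound library of mouse 3 lay above the unbound ones of mice 1 and 2. The log2 fold was -1.47 (SE 0.34, adjusted p = 0.0038), and without the pairing by mouse the adjusted p was 0.080. Rpl10a, the gene of the ribosomal protein that carries the tag, was near 1 RPKM in every library (log2 fold -0.09, 95% interval -0.72 to 0.54). These values do not measure the tagged copy alone, and reads of ribosomal protein genes can be split with near-identical pseudogenes.

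Of 39 tested general markers of the proximal tubule 22 were lower and 2 higher, with a median log2 fold of -0.86, against 18.3% lower and a median of 0.01 over all genes. Slc34a1, the sodium phosphate cotransporter, had 605, 528 and 538 RPKM in bound RNA, against 1295, 1256 and 1466 RPKM in unbound RNA, with no overlap (log2 fold -1.26, adjusted p = 0.00047). The 2 higher ones, neither of which passed without mouse 1, without mouse 2 or without the pairing, were enzymes of the cytosol, Miox of inositol breakdown (5489, 5824 and 3120 RPKM bound; 1821, 2591 and 2598 RPKM unbound) and Pck1 of glucose synthesis (log2 fold 0.89). Lrp2, the endocytic receptor megalin, had 40.3, 62.3 and 48.8 RPKM in bound RNA, against 50.2, 76.3 and 45.1 RPKM in unbound RNA, and did not pass (log2 fold -0.16, 95% interval -0.60 to 0.28). Markers of the early S1 and S2 segments were lower in 8 of 10 cases (median -1.20), among them the glucose transporter Slc5a2 (-1.35) and the organic anion transporters Slc22a6 (-1.59) and Slc22a8 (-1.72). Markers of the late S3 segment were lower in 10 of 12 cases (median -1.64; 6 without the pairing), led by the amino acid transporters Slc7a12 (-2.38) and Slc7a13, with 76.0, 44.5 and 40.7 RPKM in bound RNA, against 340.5, 272 and 192 RPKM in unbound RNA. Kap, an androgen-driven gene of the tubule, had 6091, 4206 and 2579 RPKM in bound RNA, against 26860, 26120 and 12590 RPKM in unbound RNA (log2 fold -2.35), and with no filter on low values its adjusted p was 0.080. By summed RPKM, the general list held 3.98% to 8.43% of bound libraries and 5.97% to 8.26% of unbound libraries, ranges that overlap. The S3 list overlapped as well, with 0.453% to 1.02% of bound and 0.602% to 0.617% of unbound libraries. In mouse 1 the S3 sum was 3735 RPKM in bound and 3173 RPKM in unbound RNA. The S1 and S2 list did not overlap (0.37% to 0.454% bound, 0.674% to 0.807% unbound). Without mouse 3 the higher general markers were 5.

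Markers of collecting duct principal cells and of podocytes were higher in bound RNA. Of 9 principal cell genes 7 were higher and 0 lower (median 1.57), and of 14 podocyte genes 12 were higher and 0 lower (median 1.82). Aqp2, the vasopressin-regulated water channel, had 39.2, 114 and 350.1 RPKM in bound RNA, against 13.9, 22.1 and 17.2 RPKM in unbound RNA (log2 fold 2.71, SE 0.49). Synpo, an actin-associated protein of podocyte foot processes, had 12.4, 15.9 and 22.4 RPKM in bound RNA, against 2.72, 2.87 and 1.56 RPKM in unbound RNA (log2 fold 2.59, SE 0.26). Mouse 3 had the highest bound value of both genes, and likewise of Clic3 (140, 182 and 767 RPKM bound; 20.2, 19.2 and 26.7 RPKM unbound) and of Slc14a2, the urea transporter of the inner medulla (16.8, 23.0 and 447 RPKM bound; 4.54, 3.83 and 12.1 RPKM unbound). Without mouse 3, principal cells had 5 genes higher and 1 lower (median 0.82), and podocytes had 9 higher (1.27). The log2 folds without mouse 3 were 1.91 for Aqp2, 2.99 for Clic3, 2.11 for Slc14a2, 1.99 for Nphs1 and 1.41 for Wt1, and all 5 still passed. With the sham libraries fitted alone, 3 principal cell genes were called higher. Summed over the list, principal cell genes came to 264 to 2105 RPKM in bound libraries and 129 to 185 RPKM in unbound libraries, and podocyte genes to 279 to 1119 RPKM in bound and 89.1 to 96.3 RPKM in unbound libraries. Nphs1 (log2 fold 2.81) and Wt1 (2.31) were higher too, while Npnt (0.56) and Col4a3 (-0.31) did not pass. Both fractions of a mouse came from the same homogenate, so these ratios do not measure how many cells of a type a kidney held. Their cause was not tested.

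Markers of other kidney cells gave smaller or mixed differences. Their counts lay near the shares over all genes, 21.0% higher and 18.3% lower, or rested on few genes. Endothelial genes were higher in 5 of 19 cases and lower in 0 (median 0.28), with Cldn5 in front (log2 fold 1.93, and 1.35 without mouse 3) and Pecam1 not passing (0.28). Of 15 stromal genes, Myh11 and Ren1 were higher (median of the list 0.26), and Ren1 (0.90, adjusted p = 0.047) lost its call when any of the mice was left out. Of 12 genes of the thick ascending limb 0 were higher and 2 lower (0 lower without mouse 2, 1 without mouse 1), and Umod, its uromodulin gene, did not pass (-0.51). The distal convoluted tubule had 2 higher and 1 lower of 10, with 1 higher when any of the mice was left out and 2 lower without mouse 3. Among 12 genes of intercalated cells, subunits of the same proton pump lay on both sides: Atp6v1b1 was higher (32.0, 31.1 and 73.4 RPKM bound; 7.20, 9.38 and 11.7 RPKM unbound), and Atp6v1g3 was lower (26.9, 23.3 and 37.3 RPKM bound; 91.5, 86.0 and 123 RPKM unbound). The list had 3 genes lower in all.

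Some blood and immune cell genes were lower, and these calls rested on the pairing by mouse. Of 19 macrophage and dendritic cell genes 7 were lower and 0 higher (median -0.62), including Tyrobp (-1.47) and Cd68 (-1.21). Neutrophil genes were lower in 3 of 5 cases and erythroid genes in 4 of 5 (medians -1.17 and -1.79). Hba-a1 had 2.04, 30.3 and 2.10 RPKM in bound RNA, against 6.89, 106 and 10.2 RPKM in unbound RNA, so that mouse 2 had the highest value in both fractions. Of 9 lymphocyte genes, Cd79b and Ighm were higher (22.2%) and Cd3e lower (11.1%), near or under the shares over all genes of 21.0% and 18.3%. Without the pairing, 0 macrophage, 0 neutrophil and 0 erythroid genes were called lower, and Ighm and Cd3e did not pass, as they did not without mouse 2. Macrophage genes called lower were 4 without mouse 1, 4 without mouse 2 and 3 without mouse 3, when Cd68 did not pass, and neutrophil genes were 2 without mouse 1 or mouse 2. Tubule injury genes divided, with 7 of 25 higher (28.0%) and 8 lower (32.0%, median -0.18), against 21.0% and 18.3% over all genes. Without the pairing 4 were higher and 1 lower, and without mouse 1 or mouse 2 5 were lower. Lcn2, a secreted injury marker, had 13.4, 9.36 and 33.6 RPKM in bound RNA, against 6.07, 2.97 and 3.56 RPKM in unbound RNA (log2 fold 1.88, and 1.29 without mouse 3), while Spp1, osteopontin, was lower (-1.01; adjusted p = 0.0064, and up to 0.13 under other settings). Besides Lcn2, Anxa3 and Plaur, the higher injury genes were keratins (Krt7, Krt8, Krt18 and Krt19). Anxa3 and Plaur did not pass without mouse 3.

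RNAs made in mitochondria, and most of a short list of long noncoding RNAs known from the nucleus, were low in bound RNA. All 9 tested genes of the mitochondrial list were lower, with a median of -2.31, and they held 0.399% to 0.87% of bound libraries, against 1.99% to 3.19% of unbound libraries. mt-Nd1, a subunit of complex I, had 528, 486 and 320.2 RPKM in bound RNA, against 2822, 3560 and 2232 RPKM in unbound RNA (log2 fold -2.70). The mitochondrial transfer RNA gene mt-Tp (-3.57) and the ribosomal RNA gene mt-Rnr2 (-2.94) were among the largest falls, and so was Snord13, a small nucleolar RNA (-3.04). Of 7 long noncoding RNAs known from the nucleus 5 were lower and 0 higher, and Malat1 had 352, 264 and 175 RPKM in bound RNA, against 850, 746 and 392 RPKM in unbound RNA (-1.31). By annotated class, 36.8% of 234 lincRNA genes were lower and 2.99% higher, against 17.2% lower and 23.0% higher among 12376 protein-coding genes. Small nuclear RNA classes were not called lower more often than all genes (18.3%). The lower ones were 17.1% of 76 snoRNA genes and 7.69% of 39 snRNA genes. Their median log2 folds were below 0 all the same, -0.30 and -0.31, against 0.06 for protein-coding genes. In both classes 0 were higher, against 21.0% over all genes. The counting was not stated to use strand, so antisense genes cannot be told from the genes they overlap. Without mouse 1 the lower long noncoding RNAs were 2 of the 7.

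Messages of the translation machinery were also low. Of 76 cytosolic ribosomal protein genes 67 were lower and 0 higher, with a median of -1.31. Rpl32 had 253, 253 and 393 RPKM in bound RNA, against 1423, 1786 and 1326 RPKM in unbound RNA, the lowest ratio in the list (-2.35). Of 9 host RNAs of small nucleolar RNAs 8 were lower, and Gas5, which like the ribosomal protein messages starts with a pyrimidine tract, had a log2 fold of -1.77. Of 30 translation factors 13 were lower (43.3%, against 18.3% over all genes), among them the elongation factors Eef1b2 (-1.92) and Eef1a1 (-1.39). The 6 higher ones (20.0%) were about the share of all genes, 21.0%. Among the 6 were the subunits Eif3d (2.54), Eif3b (1.55), Eif3c (1.04) and Eif3a (0.98) of the initiation factor eIF3. Its subunit Eif3e was lower (-1.01). Eif3d had 347, 329 and 113 RPKM in bound RNA, against 32.3, 45.8 and 42.7 RPKM in unbound RNA. Without mouse 1, or without mouse 2, 4 host RNAs were called lower, and without mouse 2 the lower translation factors were 8.

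Several families of membrane and endoplasmic reticulum proteins were lower in bound RNA. Of 229 solute carriers outside the mitochondrial Slc25 family 114 were lower and 4 higher (median -0.56), and many of the proximal tubule markers above are among them. The bile acid carrier subunit Slc51b had 24.9, 24.7 and 29.3 RPKM in bound RNA, against 99.2, 105 and 114 RPKM in unbound RNA (-1.99). Of 179 TMEM genes, named only for a predicted membrane span, 70 were lower and 8 higher (-0.41). Of 35 cytochromes P450, anchored in the endoplasmic reticulum, 22 were lower and 2 higher (-0.94), and of 9 UDP-glucuronosyltransferases 7 were lower (median -0.92). Endoplasmic reticulum chaperones were lower in 9 of 20 cases and higher in 0 (-0.51), including the disulfide isomerases P4hb (-1.42) and Pdia3 (-1.22) and the lectin Canx (-1.33). A few of the largest falls were genes of secreted products. Spink1, a trypsin inhibitor, had 610, 443 and 299.6 RPKM in bound RNA, against 3570, 3407 and 2589 RPKM in unbound RNA (-2.87). Guca2b, uroguanylin (-2.53), and Apoc3 (-2.48) fell nearly as far. Secreted families were not clearly lower. Of 22 serpins 3 were higher and 6 lower (27.3%, against 18.3% over all genes, median -0.33). When any of the mice was left out 1 serpin was higher, and without mouse 2 3 were lower. Of 20 collagens 0 were called either way by limma (1 at an unadjusted p under 0.05; median -0.02). The mitochondrial carriers of Slc25 had 3 higher and 9 lower of 41 (-0.16), near or under the shares over all genes. The lower UDP-glucuronosyltransferases were 1 without mouse 2 (median -0.57), 2 without the pairing and 3 with sham libraries alone, the lower P450 genes were 13 without the pairing, the lower TMEM genes 46 without mouse 1, and the lower Slc25 genes 4 without mouse 1 and 6 without mouse 3. When a mouse was left out, the few higher genes of these families numbered 2 to 5 solute carriers, 3 to 9 TMEM genes, 0 to 1 P450 genes and 1 to 2 Slc25 genes.

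Enzymes of intermediary metabolism were often higher. Over all genes 21.0% were higher and 18.3% lower. Of 30 tested amino acid catabolism genes 16 were higher and 0 lower (median 0.61). Hgd, the homogentisate dioxygenase of tyrosine breakdown, had 848, 665 and 626 RPKM in bound RNA, against 146, 135 and 164 RPKM in unbound RNA (log2 fold 2.26), and Bckdha of branched-chain breakdown was higher by 1.91. Of 18 glycolysis genes 10 were higher and 1 lower (0.82), among them the 3 phosphofructokinases Pfkp (1.77), Pfkl (1.53) and Pfkm (1.48) and the hexokinase Hk1 (1.58), with Pgk1 the lower one (-0.71). Fatty acid oxidation and peroxisome genes were higher in 15 of 31 cases (48.4%, median 0.52), among them Hsd17b4 (1.60) and Hadha (1.52). The 7 lower ones (22.6%) were near the share of all genes. They included the membrane enzymes Cyp4a12a (-1.67) and Cyp4a10 (-1.65). The counts leaned on mice 1 and 2: amino acid genes called higher were 8 without mouse 1 and 10 without mouse 2, and fatty acid genes called higher were 6 without mouse 1, and 9 with 2 lower without the pairing.

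Nuclear genes of oxidative phosphorylation were often lower. Of 32 tested 17 were lower (53.1%, against 18.3% over all genes), with a median of -0.80. The 7 higher ones (21.9%) were about the share of all genes, 21.0%. Sdha, the flavoprotein of complex II, had 988, 897 and 775 RPKM in bound RNA, against 183, 178 and 268.5 RPKM in unbound RNA (log2 fold 2.09). Higher as well were the large core subunits Ndufs1 (1.79), Uqcrc2 (1.46), Ndufv1 (1.28) and Uqcrc1 (1.13). The small subunit gene Ndufa4 had 954, 889 and 1218 RPKM in bound RNA, against 3626, 3343 and 3618 RPKM in unbound RNA (-1.80), and Uqcrq (-1.72) and Cox7a2 (-1.70) were lower too. Members of 1 complex thus lay on both sides of 0, beyond the spread of their libraries.

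The difference between fractions moved with summed exon length. This length covers all annotated exons of a gene and can exceed that of the transcript expressed. Among protein-coding genes with under 1 kb of summed exon length the median log2 fold was -0.75, and 46.8% were lower against 2.66% higher. From there the median went to -0.33 at 1 to 2 kb, -0.04 at 2 to 4 kb, 0.18 at 4 to 8 kb and 0.33 at 8 kb and over, where 35.7% were higher and 8.31% lower. Across 12367 genes, which are not independent replicates, log10 length correlated with the log2 fold at r = 0.325 (Spearman 0.313), and GC content at r = 0.186. RPKM is already divided by length. In the bin of 8 kb and over, 34 genes (1.65%) were higher by at least 8-fold. Of the 42 genes of the 6 actin-binding families, 40 lay above the upper quartile of all genes in their length bin. Of the 229 solute carriers 199 lay below the median of their bin, and of the 76 ribosomal proteins all 76 did. These groups were picked with values of these data known, so their places in the bins describe the data and test nothing about length. Gsn, with 3157 bases of summed exon, and Myl7, with 590, were among the genes higher by at least 8-fold in bound RNA. The part of length, fragment size and RNA integrity in these differences was not tested.

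**Figure D4:**
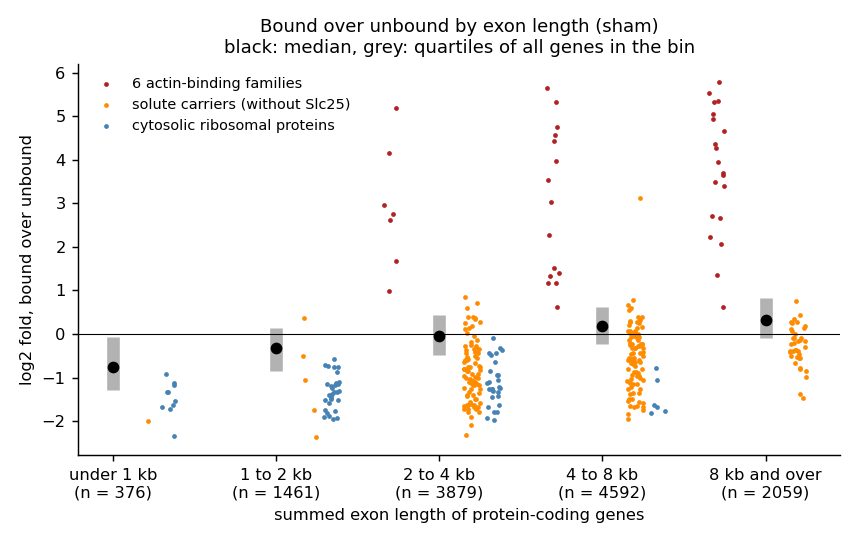
Log2 fold of bound over unbound RNA by summed exon length of protein-coding genes in sham kidneys; black dots are medians and grey bars quartiles of all genes in a bin, and coloured dots are members of 3 gene groups. The median climbs from -0.75 under 1 kb to 0.33 at 8 kb and over. Actin-binding families lie above and ribosomal proteins below the medians of their bins. The groups were picked with values known.

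The same contrast was made at each time after ischemia, in other mice. Across genes, the sham difference correlated with that of day 2, day 7 and day 14 at r = 0.803, 0.533 and 0.535, and 95.1%, 80.5% and 78.9% of the 5391 sham calls had the same sign there. Of the 66 genes higher by at least 8-fold in sham kidneys, 64 were called higher at day 2 (5.24% of all genes were, and 4.26% were lower), 55 at day 7 (4.28%, with 7.11% lower) and 49 at day 14 (0.794%, with 1.82% lower). Their median log2 fold was 3.82 in sham kidneys and 2.84, 2.53 and 2.30 at the 3 later times. The 66 were picked for a large sham fold, which raises their sham median. Over all genes the log2 folds also spread less later. Their SD was 0.824 in sham kidneys and 0.538, 0.573 and 0.48 at day 2, 7 and 14. Myh9 had 1668, 866 and 86.0 RPKM in bound RNA at day 2, against 14.7, 23.9 and 25.2 RPKM in unbound RNA, and its log2 fold was 5.80 in sham kidneys, then 4.56, 5.86 and 4.51. At day 2 the bound library of mouse 3 was likewise low for Actn4 (2495, 1578 and 202 RPKM) and Sptan1 (698, 376.5 and 34.3 RPKM). For Krt18 it was near that of mouse 2 (358.7 and 359.3 RPKM). The day 2 folds and medians include this library, and no fit left it out. Myosin heavy chains had medians of 3.51, 1.91, 2.51 and 2.21 from sham to day 14, and mitochondrially encoded genes -2.31, -2.00, -2.93 and -2.65.

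Where the contrast itself was tested for change, 0 genes differed at day 2 from sham (by limma; 1641 at an unadjusted p under 0.05), 722 at day 7 (5.26%; 2.43% higher and 2.83% lower) and 862 at day 14 (6.28%; 3.40% higher and 2.89% lower). These counts rest on single mice: without sham mouse 2 they were 6 at day 7 and 86 at day 14, without sham mouse 1 they were 191 and 318, and without pairing 20 and 27. Havcr1 had log2 folds of -0.19, 1.34 and 0.52 at day 2, 7 and 14, so it was lower in bound RNA in sham kidneys and higher at day 7 (adjusted p = 0.019 for the difference of day 7 from sham). At day 7 it had 131, 132 and 248 RPKM in bound RNA, against 38.1, 54.9 and 125 RPKM in unbound RNA. Kap and S3 genes changed in the same direction: S3 medians were -1.64 in sham kidneys and -0.31, 0.12 and 0.25 later, with 6 of 12 genes called for the day 14 difference. Of 76 ribosomal protein genes, 15 had a higher contrast at day 7 and 12 at day 14 than in sham kidneys. Among 22 myosin heavy chains, 1 gene had a lower contrast at each of these times.

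**Figure D5:**
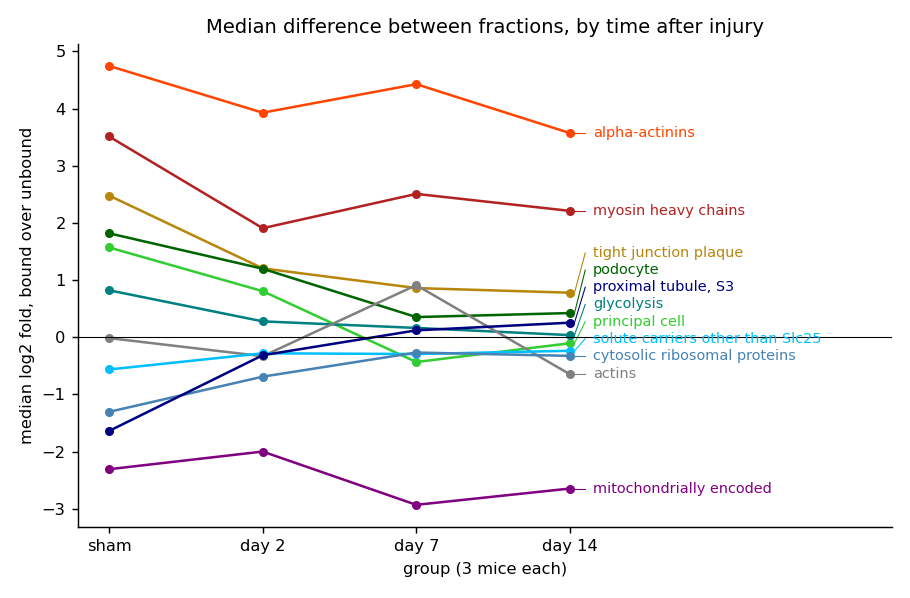
Median log2 fold of bound over unbound RNA for 11 gene families and marker lists in sham kidneys and at day 2, 7 and 14 after ischemia (3 mice a time; lines join medians and show no error). Alpha-actinins and myosin heavy chains stay above 1.9 at every time, mitochondrially encoded genes stay near -2 or below, and S3 genes climb from -1.64 to 0.25.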

How the data were processed

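Bound and unbound RNA of 12 mouse kidneys was sequenced in 24 libraries. The table deposited by the authors holds RPKM, 1 column per library. The submitters' processing notes name STAR 2.0.4b, featureCounts 1.4.5, Subread and edgeR, without their roles. Per the labels' protocols, libraries were made with the Low Input RNA kit, with RNA integrity measured. For the genome build nothing is stated (not given in the sources used here). Read counts were not used. RPKM is relative, so a change in abundant genes shifts all others. Of 41831 lines, 1081 repeated an earlier gene ID with identical values and were dropped.

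Depth was inferred with exon lengths from GENCODE M21 (GRCm38): in the sham libraries 73.8% to 76.8% of values up to 50 reads were whole numbers of reads (tolerance 0.02), against 4% by chance. Chromosomes and exon lengths were matched by gene ID, without coordinates.

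In R 4.3.3, limma 3.58.1 fitted log2(RPKM + 0.5) of all 24 libraries, with mouse as a block, a bound effect per time and variances following a trend with abundance. A gene was tested at 1 RPKM or more in at least 3 libraries and called at a Benjamini-Hochberg adjusted p under 0.05, from which all p-values here come. Fold changes on this scale understate those of low genes. Levels are means with SD of 3 mice. Both fractions come from 1 homogenate. The deviations of same-numbered sham libraries from their group means correlated at 0.33, 0.42 and 0.33, against -0.10 to -0.28 for other pairs. Deviations within a group sum to 0, so the negative values follow in part from the positive ones. At day 14 same-numbered pairs had 0.42, 0.57 and 0.67, but bound 1 with unbound 2 had 0.27 and bound 2 with unbound 1 had 0.31. The method was tested on simulated data.

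Gene lists were written from general knowledge, and members and lists were chosen with earlier results of these data known. Families were formed by symbol after values were seen. Genes named are the 12 largest rises and 12 largest falls that keep their sign in 3 pairs without overlap at 5 RPKM or more, up to 4 called members of smallest p per list, fixed genes, the 4 largest changes each way between times, and list members as examples; some genes under this rule are not reported here. Alternatives covered the block, samples, pseudocount, filter, scaling, variance trend and leaving out each mouse.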

Additional observations from a re-analysis of the deposited data

Results flagged for a closer look

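Of 161 genes chosen for naming, 48 at day 7 and 48 at day 14 had a bound minus unbound difference (log2) that itself differed from that of sham kidneys by the interaction term in limma. Those given here are the ones among the largest rises and falls, the fixed genes and the largest changes between times. Without sham mouse 2 the number among the 161 was 1 at day 7 and 9 at day 14, without sham mouse 1 it was 17 and 21, and without the pairing by mouse 1 and 1. In the first group the bound minus unbound difference was lower after injury than in sham kidneys. Shroom2, an actin-binding organizer of the cell apex, had 1.27 at day 14, against 3.86 in sham kidneys (difference -2.60, adjusted p = 0.046). Its relative Shroom4 had 0.38 at day 7 and 0.71 at day 14, against 3.39 in sham kidneys (differences -3.01 and -2.68, adjusted p = 0.022 and 0.02). Akap8, a nuclear anchor of protein kinase A, had 0.59 at day 7 and 0.47 at day 14, against 3.20 in sham kidneys (differences -2.60 and -2.73, adjusted p = 0.026 and 0.02). The keratin gene Krt23 had 0.39 at day 7 and 0.53 at day 14, against 3.12 in sham kidneys (differences -2.73 and -2.60, adjusted p = 0.021 and 0.016). Zfp185, a LIM domain gene, had -0.12 at day 7, against 2.63 in sham kidneys (difference -2.74, adjusted p = 0.034). Lcn2 had -0.52 at day 7 and -0.22 at day 14, against 1.88 in sham kidneys (differences -2.40 and -2.10, adjusted p = 0.02 and 0.02). Ighm, an immunoglobulin heavy chain, had -1.26 at day 7 and -0.67 at day 14, against 1.48 in sham kidneys (differences -2.73 and -2.15, adjusted p = 0.022 and 0.03). The endothelial gene Pecam1 had -0.95 at day 7, against 0.28 in sham kidneys (difference -1.23, adjusted p = 0.044). Slc12a3, the thiazide-sensitive cotransporter, had -1.85 at day 7, against -0.39 in sham kidneys (difference -1.46, adjusted p = 0.039).

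In the other group the difference was higher after injury than in sham kidneys. Spp1 had 0.31 at day 7, against -1.01 in sham kidneys (difference 1.32, adjusted p = 0.048). Havcr1 had 1.34 at day 7 and 0.52 at day 14, against -1.47 in sham kidneys (differences 2.81 and 2.00, adjusted p = 0.019 and 0.031). Gas5 had -0.43 at day 14, against -1.77 in sham kidneys (difference 1.34, adjusted p = 0.036). Mir7016, a microRNA gene, had 1.35 at day 14, against -1.85 in sham kidneys (difference 3.20, adjusted p = 0.033). Ttc36 had 3.42 at day 7, against -2.02 in sham kidneys (difference 5.44, adjusted p = 0.046). The secretoglobin gene Scgb1c1 had 0.60 at day 14, against -2.20 in sham kidneys (difference 2.81, adjusted p = 0.045). Slc7a13 had -0.52 at day 14, against -2.33 in sham kidneys (difference 1.80, adjusted p = 0.041). Kap had -0.55 at day 7 and 0.14 at day 14, against -2.35 in sham kidneys (differences 1.80 and 2.49, adjusted p = 0.048 and 0.018). Slc7a12 had 0.42 at day 7 and 0.18 at day 14, against -2.38 in sham kidneys (differences 2.80 and 2.56, adjusted p = 0.022 and 0.02). Calml4, a light chain of brush border myosin, had 0.08 at day 7 and 0.32 at day 14, against -2.42 in sham kidneys (differences 2.50 and 2.74, adjusted p = 0.019 and 0.0083). Apoc3, an apolipoprotein gene, had 0.36 at day 7 and 0.82 at day 14, against -2.48 in sham kidneys (differences 2.84 and 3.30, adjusted p = 0.022 and 0.012). Guca2b had 0.19 at day 7 and -0.04 at day 14, against -2.53 in sham kidneys (differences 2.72 and 2.49, adjusted p = 0.019 and 0.015). Fam25c had -0.91 at day 7 and -0.16 at day 14, against -2.66 in sham kidneys (differences 1.75 and 2.50, adjusted p = 0.04 and 0.013). Spink1 had -0.38 at day 7 and 0.09 at day 14, against -2.87 in sham kidneys (differences 2.48 and 2.96, adjusted p = 0.022 and 0.012). Ttc36 and Mir7016 varied widely between libraries, with standard errors of 1.45 and 0.783 for these differences.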

How the results depend on the processing

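The number of genes called between the sham fractions was 3783 without the pairing by mouse (no replicate block), 3261 with sham libraries alone and 3488 to 5137 when a mouse was left out, against 5391 with all. The contrasts between times depended more on the settings. Without the block they gave 20 calls at day 7 and 27 at day 14, with no filter 26 and 118, and after quantile normalization 455 and 465, against 722 and 862. Leaving out a sham mouse gave 6 to 1262 calls at day 7 and 86 to 1116 at day 14. At day 2 there were 3 with no filter and 2 without the variance trend, against 0. Of the 152 genes chosen for naming by the sham contrast, 35 lost their call without the block, 11 with sham libraries alone, 11 with no filter and 10 to 14 when a mouse was left out. Those that changed sign had not passed to begin with. Leaving out a mouse gave -0.048 to 0.43 for Gapdh, -0.26 to 0.13 for Rpl10a and -1.25 to 0.32 for Actb, which was also positive (0.30) after quantile normalization. The cause was not tested. With 3 mice a group the median standard error of a sham log2 fold was 0.233.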

Other observations

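Enzymes that load amino acids onto transfer RNAs were higher in bound RNA in 9 of 17 cases and lower in 1, with a median log2 fold of 0.60. Lars, the leucine enzyme, averaged 29.7 RPKM in bound and 7.04 RPKM in unbound RNA (log2 fold 1.98), and Mars, the methionine enzyme, was the lower one (-0.45), a call lost when any of the mice was left out. Of 42 ubiquitin-specific proteases 19 were higher and 0 lower (median 0.39), led by Usp54 (2.45) and Usp8, with 122 RPKM in bound and 27.3 RPKM in unbound RNA (2.14). Of 29 F-box only genes 12 were higher and 2 lower (0.31), and Fbxo46 (4.85) and Fbxo34 (4.69) stood far above the next, Fbxo25 (1.87). Over all genes 21.0% were higher. Without the pairing by mouse 12 proteases were higher, and without mouse 2 the higher F-box genes were 5 and the lower ones 1. These families were formed after values were seen.

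Immediate early genes were higher in 8 of 19 cases (42.1%, against 21.0% over all genes) and lower in 0 (median 0.50). Among the higher ones were Btg2 (log2 fold 1.30), Dusp1 (1.05), Myc (0.83) and Klf6 (0.75). The 8 calls became 1 without the pairing by mouse, 2 with sham libraries alone and 3 without mouse 3, and Dusp1, Myc and Klf6 were among those that did not pass without the pairing. Integrated stress response genes were higher in 5 of 15 cases and lower in 1. The counts were 2 and 0 without the pairing, 4 and 0 without mouse 1, and 3 and 0 without mouse 2. The asparagine synthetase gene Asns stood in front (7.15, 5.18 and 7.61 RPKM in bound RNA, against 2.33, 1.53 and 1.83 RPKM in unbound RNA). Of 23 cell cycle genes 5 were higher, about the share of all genes, including the replication helicase subunits Mcm2 (1.78) and Mcm3 (1.38), and Birc5 was lower (-1.15). Without the pairing 1 was higher and 0 lower, and Mcm3 (adjusted p = 0.070) and Birc5 (0.066) did not pass, and without mouse 1, or without mouse 2, 3 were higher.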
